A study of Mus musculus with 25 samples.

Results

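A set of 32 lysosomal genes was followed in macrophages and fibroblasts sorted from mouse lung and skin, with and without depletion of neutrophils. The set was chosen by name, and holds 10 proteases, 8 glycosidases and lipases, 3 soluble cofactors and carriers, 9 membrane proteins and channels, and 2 transcription factors. The lung table held 31 of the 32 among 11867 genes, Man2b1 being the gene without a value there, and the skin table held all 32 among 12661 genes. All mice were C57BL/6, carried the Rosa26_DTR allele and received diphtheria toxin into the peritoneum at 10 µg per kg for 7 days. Depleted mice had the genotype Mrp8_CRE; Rosa26_DTR, and control mice were Mrp8_WT; Rosa26_DTR. Mrp8 is the older name of S100a8, whose promoter here drives Cre. The toxin receptor is therefore switched on in cells that use this promoter, chiefly neutrophils but also some other myeloid cells, and the controls were exposed to the toxin too.

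Lung macrophages were sorted as live CD45+ CD68+ F4/80+ cells with high CD11b and no CD11c, which the protocol calls interstitial macrophages, and skin macrophages as CD45+ CD11b+ CD68+ F4/80+ cells. Fibroblasts were PDGFRA+ cells without CD45, CD31 and EPCAM, and in skin also carried CD90.1. The lung libraries form 4 groups of 3 (control and depleted macrophages, control and depleted fibroblasts). In skin there were 4 depleted and 3 control macrophage libraries, 3 depleted and 3 control fibroblast libraries. The labels do not say whether libraries of a group came from separate animals, so each p-value measures only the spread between libraries.

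Lysosomes are acidic organelles in which hydrolases take apart proteins, glycans and lipids delivered by endocytosis, phagocytosis and autophagy. Many of these enzymes carry a mannose 6-phosphate tag that sorting receptors read, and reach an organelle whose membrane is built of heavily glycosylated proteins such as LAMP1 and LAMP2 and acidified by the V-ATPase proton pump. Transcription factors of the MiT family, TFEB and TFE3 among them, bind an E-box-like sequence known as the CLEAR element near many lysosomal genes. Macrophages are known for a large lysosomal compartment, while fibroblasts also secrete some lysosomal proteases that act on the extracellular matrix.

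Values are the authors' normalised values, a linear signal in which 1 estimated read was worth 2.997 to 6.81 units in lung libraries, with 124075 to 385925 estimated reads each. In skin libraries, with 6553115 to 27259903 estimated reads, a read was worth 0.0371 to 0.162 units. Low values in lung therefore rest on few reads. Differences are log2 fold changes from limma, after adding 1.04 units in lung and 1.001 in skin to every value, which understates the change of low genes. A gene is said to be called where the Benjamini-Hochberg adjusted p over all genes tested was below 0.05. The organs were normalised separately, so no test crosses them.

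Before any comparison, 2 of the 3 skin control macrophage libraries, replicates 1 and 5, were kept apart because they carry a fibroblast profile (replicate 5 is titled as a fibroblast library but labelled as macrophages). The 16 macrophage markers, all 16 in the table, summed to 0.0141 and 0.0147% of reads in these libraries, against 2.55% in the remaining control library and 2.74 to 3.55% in the depleted macrophage libraries. The 16 fibroblast markers made up 9.48 and 11.98% there, against 6.23 to 12.1% in fibroblast libraries and 0.0302 to 0.208% in the other macrophage libraries. The lysosomal genes followed the same split. In replicate 1, 23 of 32 members fell within the range of the 6 fibroblast libraries and 3 within the range of the other macrophage libraries; in replicate 5 these numbers were 28 and 2. All members but Tfeb and Scarb2 in replicate 1, and all but Neu1 in replicate 5, lay nearer to the fibroblast mean. Skin control macrophages are therefore represented by 1 library, replicate 3, and values from the libraries as labelled are given beside each result that needs them.

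Sequence upstream of the start sites is shown first for 6 members, because the CLEAR element is how this gene set is usually tied together. RefSeq promoters (GRCm38.p6) were found for 28 of the 32 members, with no entry for Asah1, Ctsb, Ctsh and Npc1. The 250 bases before each start were searched for the E-box CACGTG and for TCACGTGA, the core of the CLEAR element, which contains that E-box. Both read the same on either strand. The E-box lay upstream of 9 of the 28 members (32.1%), against 6.86% of 27025 genes, and the longer core upstream of 4 (14.3%), against 0.907% of genes. The members were chosen as lysosomal genes, near many of which this element is already known, so these shares are no independent result. Matches are in capitals below, each sequence 5′ to 3′ on the strand of its gene.
Ctsa (chr2:164833749-164833772, plus strand): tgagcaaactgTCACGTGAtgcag
Ctsd (chr7:142387908-142387937, minus strand): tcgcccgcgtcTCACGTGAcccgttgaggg
Cln3 (chr7:126583340-126583369, minus strand): cacgggtactgTCACGTGAcccccaacctg
Mcoln1 (chr8:3500462-3500491, plus strand): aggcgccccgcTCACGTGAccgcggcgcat
Lamp1 (chr8:13159074-13159160, plus strand): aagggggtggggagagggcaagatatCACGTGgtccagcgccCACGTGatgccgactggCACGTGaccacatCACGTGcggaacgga
Lgmn (chr12:102439110-102439167, minus strand): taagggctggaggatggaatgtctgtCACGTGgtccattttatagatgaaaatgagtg

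Ctsa, Ctsd, Cln3 and Mcoln1 are the members with the longer core, 13, 99, 122 and 46 bases before their starts, and the windows shown for them overlap an annotated exon. Ctsd, Cln3 and Mcoln1 also held 1 separate E-box each, at 245, 149 and 71 bases, outside the windows shown. Lamp1 held 4 E-boxes, at 61, 45, 28 and 15 bases before its start, all upstream of the annotated gene (chr8:13159161-13175338). Lgmn held 1 E-box 49 bases upstream of a RefSeq start that lies inside the annotated gene. Ctsl, Gaa and Glb1 held 1 E-box each, at 236, 140 and 48 bases. The 9 genes did not share 1 pattern of expression: Ctsa and Lgmn were higher in macrophages wherever groups of 3 or more libraries were compared, Ctsl was lower in all those comparisons, and Glb1 and Mcoln1 were called in none. A match is a description of these letters only.

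**Figure D1:**
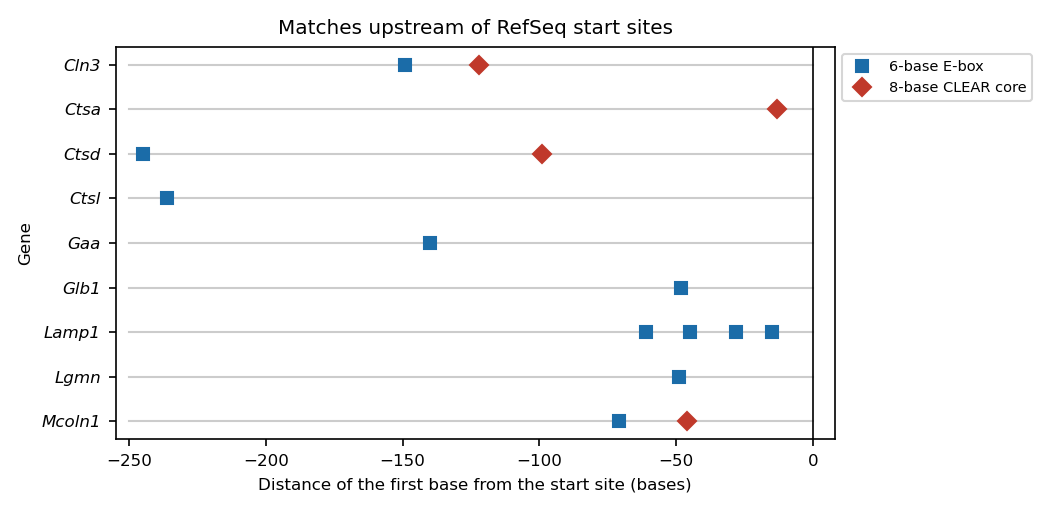
Distance, in bases, from each RefSeq start (0) to the first base of every match within 250 bases upstream, for the 9 members with a match; squares are the 6-base E-box and diamonds the 8-base CLEAR core. Lamp1 holds 4 matches, at 61 to 15 bases, and the nearest core match is that of Ctsa at 13 bases.

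The lysosomal genes took up a larger share of the signal in macrophages than in fibroblasts. In lung the members summed to 0.841 to 1.26% of the total in the 6 macrophage libraries and to 0.612 to 0.721% in the 6 fibroblast libraries. In skin they summed to 2.04 to 3.29% in the 5 macrophage libraries and to 0.997 to 1.66% in the 6 fibroblast libraries, and to 1.36 and 1.32% in the libraries kept apart. Neither organ's ranges overlapped between the cell types. Levels of different genes were set side by side per kilobase of annotated exon, counting every annotated isoform. That length (5.438 kb for Npc2, 2.744 kb for Psap) can exceed that of the transcripts present, so order and shares depend on it. On that scale Psap, the precursor of the saposins that help lipid hydrolases reach their substrates, led every macrophage group, with means of 689 and 718 units per kilobase in lung control and depleted macrophages and 2010.2 in skin depleted macrophages. It supplied 16.1 to 23.4% of the members' sum in the 4 macrophage groups. Next in lung macrophages came Ctsz (cathepsin Z, a carboxypeptidase), at 443 and 523. In skin depleted macrophages Lgmn (legumain, which cuts after asparagine) followed at 957 and Ctsb (cathepsin B) at 841.

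Fibroblasts had other leading members. In lung fibroblasts Laptm4a, a small membrane protein of late endosomes and lysosomes, supplied 41.4% of the members' sum in controls and 43.7% in depleted mice, at 852 and 936 units per kilobase. Cd63, a tetraspanin of late endosomes, came next at 213 and 228. In skin fibroblasts the order began with Ctsk, the collagen-degrading cathepsin K known from osteoclasts, at 1028 and 897, and Laptm4a at 909.7 and 851. In the libraries kept apart the same pair led, with means of 1004.1 for Ctsk and 1083 for Laptm4a. The per-library values of Ctsk in the skin fibroblasts (1787, 1532 and 1346 in controls, 2209, 1001 and 860.2 in depleted mice, not per kilobase) overlap those of Laptm4a (1876, 1586 and 1377, 2055, 1293 and 1178). The lowest level per kilobase belonged to Tfeb in both lung fibroblast groups and to Laptm5 in both skin fibroblast groups.

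**Figure D2:**
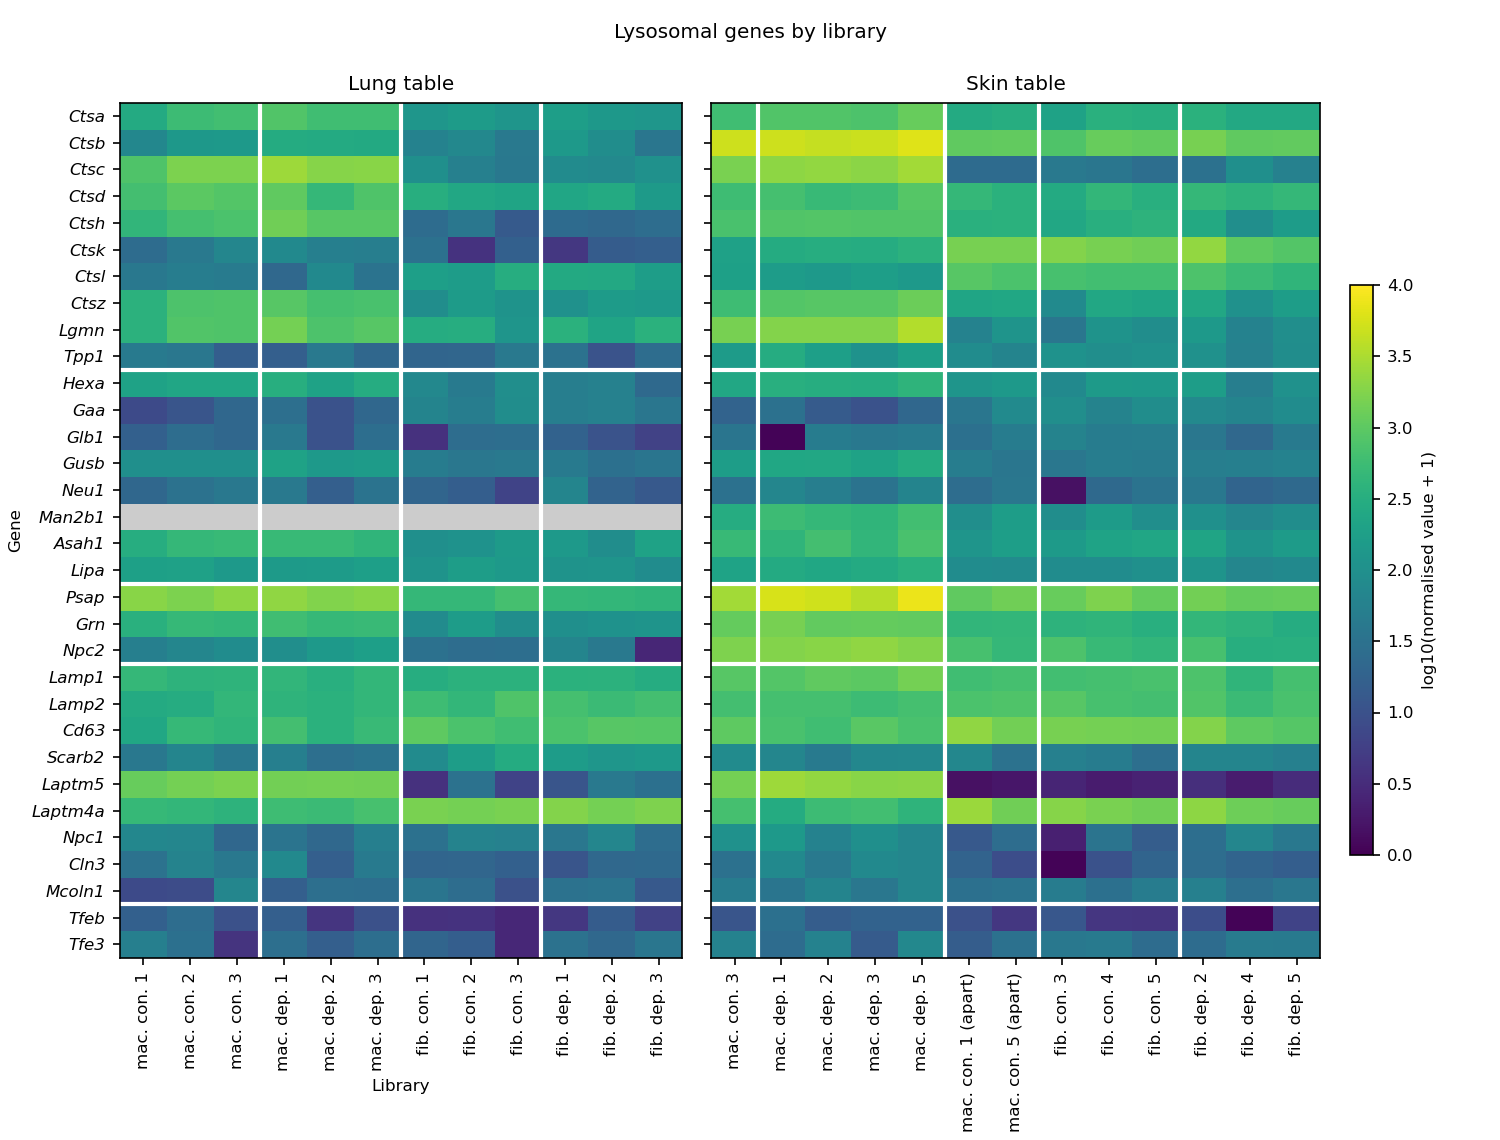
Normalised values (log10 of value + 1, colour scale from 0 to 4) of the 32 members in every library of the lung and skin tables, with genes in the order of the text and white lines between groups and gene classes; Man2b1 has no lung value and is grey. The 2 skin control macrophage libraries kept apart look like the fibroblast libraries beside them, with Laptm5 at 0.539 and 0.766 against 1446 in the control macrophage library that was used.

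Macrophages were compared with fibroblasts within each organ and treatment, which asks which lysosomal genes go with the cell type whatever the depletion. In lung control mice 14 of 31 members were called higher in macrophages and 6 lower, where 12.2% of all 11867 genes were called higher and 11.0% lower (23.2% in all). In lung depleted mice 15 were higher and 4 lower (12.5 and 10.6% of all genes, 23.0% together), and in skin depleted mice 18 of 32 were higher and 4 lower (11.4 and 12.7% of 12079 genes, 24.0% together). The median member differed by 1.21, 1.10 and 1.65 on the log2 scale in these comparisons, beside -0.08, -0.06 and -0.11 for all genes tested. Members whose groups did not overlap numbered 17 higher and 5 lower in lung control mice (18.7 and 17.8% of all genes), 16 and 6 in lung depleted mice (17.2 and 20.4%), and 20 and 4 in skin depleted mice (16.2 and 17.9%). In bulk libraries fewer cells of a type and less RNA per cell cannot be told apart.

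These 3 comparisons share no library. The same 12 members were higher in macrophages in all of them: the proteases Ctsa, Ctsc, Ctsh, Ctsz and Lgmn, the enzymes Asah1, Gusb and Hexa, the cofactors Grn, Npc2 and Psap, and the membrane protein Laptm5. Ctsl and Laptm4a were lower in all of them. Glb1, Mcoln1, Neu1, Npc1 and Tfe3 were called in none, Man2b1, tested in skin only, was higher there, and the other 12 were called in 1 or 2 comparisons. Both cell populations carried their own markers. In lung macrophage libraries the 16 macrophage markers summed to 1.98 to 4.03% of reads, against 0.0210 to 0.0719% in fibroblasts, and 15 fibroblast markers to 0.00388 to 0.0128%, against 0.469 to 0.703%. Lung macrophage libraries also carried reads of 11 neutrophil markers (0.153 to 1.67%, none at 0 in all libraries) and of 12 epithelial markers (0.243 to 2.18%), whereas lung fibroblast libraries held 0.00215 to 0.00780% and 0.0508 to 0.572%. The part of these cells in the member values was not tested.

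**Figure D3:**
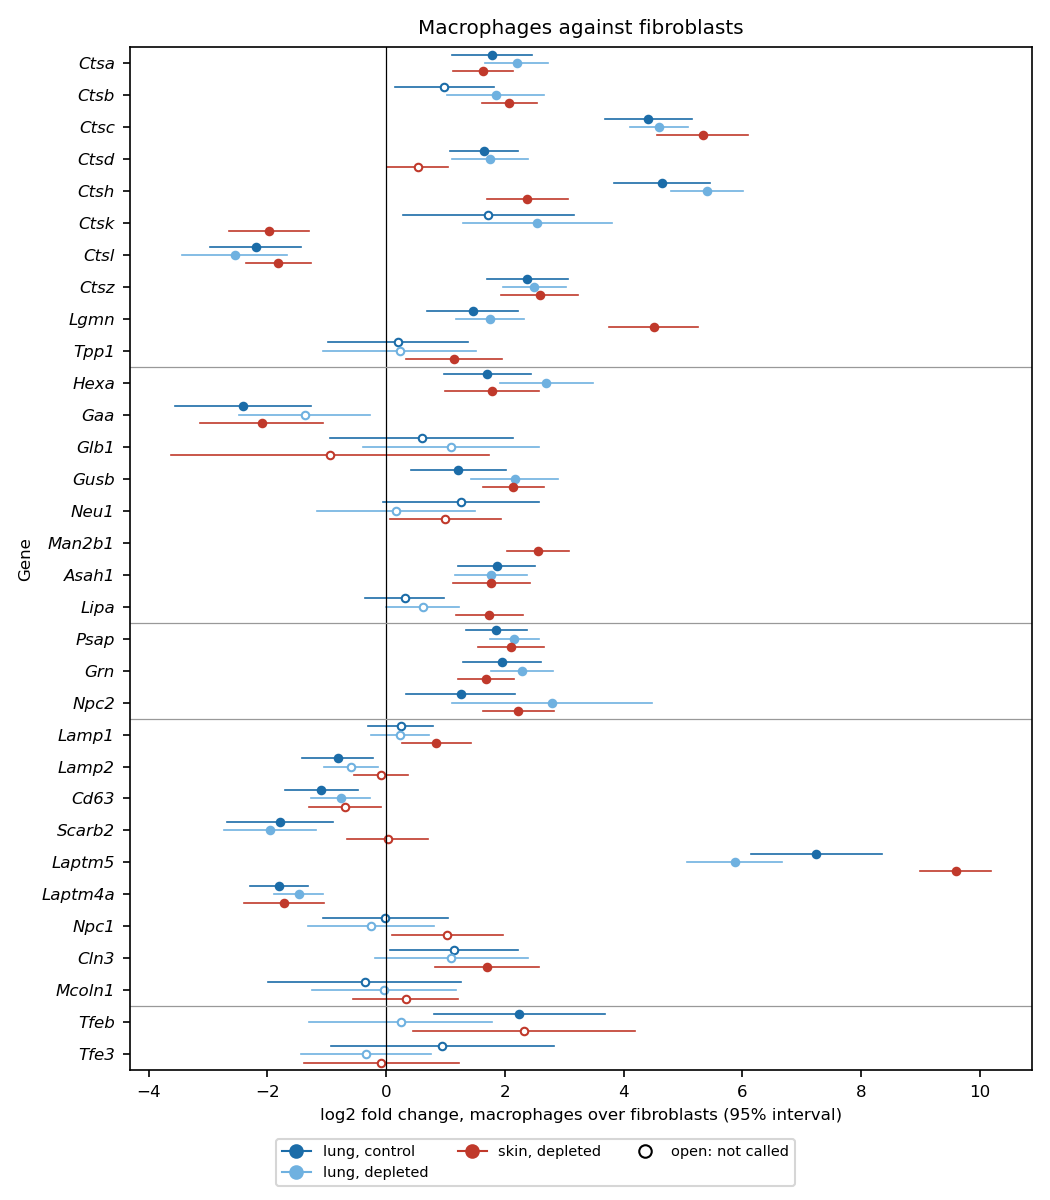
Log2 fold changes of macrophages over fibroblasts with their 95% intervals for each member, in lung control mice, lung depleted mice and skin depleted mice; filled points were called and open points were not. Laptm5 lies farthest to the right at 7.24, 5.87 and 9.59, and Ctsk is the member with called values on both sides of 0.

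Among the 10 proteases, 6 were called higher and 1 lower in lung control mice, 8 and 1 in lung depleted mice, and 7 and 2 in skin depleted mice. Ctsc encodes cathepsin C, the aminopeptidase that activates granule serine proteases, at chr7:88278085-88310888 in GRCm38. Its values were 784, 1601 and 1636 in lung control macrophages and 95.5, 54.9 and 38.3 in lung control fibroblasts. Lung depleted macrophages held 2635, 1896 and 1975, and their fibroblasts 85.1, 75.5 and 105. No macrophage library came near the fibroblast range, and the log2 difference was 4.41 ± 0.35 (SE; adjusted p = 3.6e-09) in controls and 4.59 ± 0.23 (SE; adjusted p = 1.6e-10) in depleted mice. Skin depleted macrophages held 2104, 2229.7, 2009.6 and 2826 against 30.2, 98.7 and 56.6 in fibroblasts, a difference of 5.33 ± 0.34 (SE; adjusted p = 2.68e-06).

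Ctsh, an aminopeptidase of the cathepsin family on chr9:90054152-90076089, was close to Ctsc in lung. Control macrophages held 432, 661 and 731 and fibroblasts 24.6, 37.6 and 12.5, and depleted macrophages held 1381, 915 and 905 and fibroblasts 23.8, 21.3 and 25.9. The differences were 4.65 ± 0.39 (SE; adjusted p = 7.99e-09) and 5.41 ± 0.29 (SE; adjusted p = 2.6e-10). Skin depleted macrophages held 814, 850.0, 806 and 833 and fibroblasts 264, 92.9 and 160.4, again without overlap but with a smaller difference of 2.38 (adjusted p = 0.000326).

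For Lgmn the difference was larger in skin than in lung. Lung control macrophages held 364, 828 and 789 and fibroblasts 304, 315 and 119, so the lowest macrophage library was only slightly above the highest fibroblast library. The difference was 1.46 (adjusted p = 0.00542), and 1.25 and not called without macrophage replicate 2. That call was also lost with quantile normalisation (1.08) and without a variance trend (1.46). Skin depleted macrophages held 1788, 1803, 1831 and 3474 and fibroblasts 145, 58.98 and 93.4, with a difference of 4.503 ± 0.34 (SE; adjusted p = 8.13e-06). Replicate 5 of the skin macrophages stood far above the other 3 libraries for Lgmn, and was highest for Ctsa too. Whether Ctsh and Lgmn differ between organs was not tested, because the tables were normalised separately.

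The other proteases higher in macrophages moved less. Ctsz rose by 2.38, 2.497 and 2.58 in lung control, lung depleted and skin depleted mice, and Ctsa, the carboxypeptidase that also protects β-galactosidase and neuraminidase, by 1.78, 2.196 and 1.63. Exons of Ctsa share 495 bases (10.5% of its exon length) with Pltp on the opposite strand, which was also higher in macrophages (152 to 309 against 30.3 to 65.7 in lung), and its part in the Ctsa values was not tested. Ctsd, the aspartic protease cathepsin D, whose exons share 808 bases (34.4%) with another model on the same strand, was higher in both lung comparisons (1.65 and 1.75) and not called in skin depleted mice (0.53, 95% interval 0.02 to 1.05). Ctsb was called in lung depleted mice (1.84) and in skin (2.08), but not in lung control mice (0.98, adjusted p = 0.0862). Tpp1, the tripeptidyl peptidase lost in a childhood neuronal storage disease, was called only in skin (1.14, against 0.19 and 0.22 in lung). That call was lost without macrophage replicate 1, 2 or 5 or fibroblast replicate 4 or 5 (0.89 to 1.22). It was also lost with quantile normalisation (1.08), without a variance trend (1.14) and with a pseudocount 0.1 times as large (1.15).

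Ctsl encodes cathepsin L, an endopeptidase on chr13:64359337-64370890, and was called lower in macrophages in all 3 comparisons. In lung, control macrophages held 38.4, 49.4 and 44.5 and fibroblasts 177, 159 and 308; depleted macrophages held 21.5, 77.6 and 32.2 and fibroblasts 269, 262 and 168. In skin depleted mice the values were 164, 138, 171 and 144 in macrophages and 758, 524 and 407 in fibroblasts. No macrophage library reached the lowest fibroblast library in either organ, and the differences were -2.202 ± 0.37 (SE; adjusted p = 0.000103), -2.56 ± 0.42 (SE; adjusted p = 0.000189) and -1.82 ± 0.25 (SE; adjusted p = 0.000424). Exons of Ctsl share 1742 bases with an antisense model, and a strand setting is not given in the sources used here, so reads of the pair cannot be told apart.

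Ctsk, singled out here after its values were seen, was the only member called in opposite directions in the 2 organs. Lung depleted macrophages held 76.9, 52.7 and 50.1 and fibroblasts 3.404, 13.6 and 15.5, a difference of 2.54 ± 0.595 (SE; adjusted p = 0.00436) that rests on 28 estimated reads against 7. Lung control macrophages held 24.9, 40.5 and 68.3 and fibroblasts 30.02, 2.89 and 16.04; these overlapped, and the difference was 1.72 (adjusted p = 0.0801). Skin depleted macrophages held 289, 312, 295 and 367 and fibroblasts 2209, 1001 and 860.2, a difference of -1.98 ± 0.31 (SE; adjusted p = 0.00103) in the other direction. Over all alternatives the value stayed between 1.76 and 2.89 in lung depleted mice and between -2.38 and -1.56 in skin depleted mice, and was called in each, with 1.94 in lung without fibroblast replicate 1. The difference between organs was not tested.

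**Figure D4:**
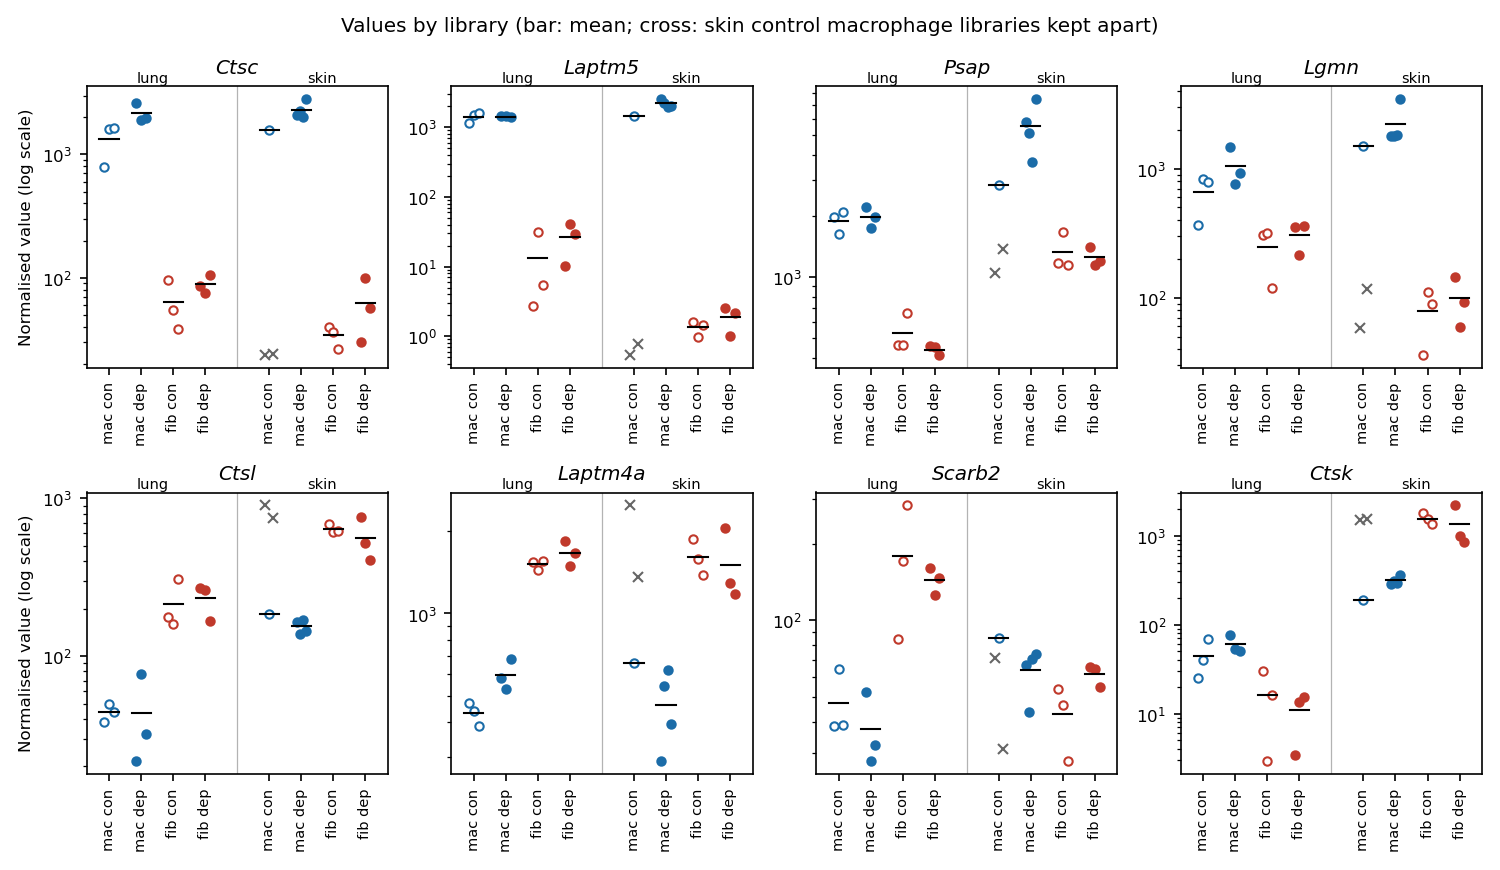
Normalised values (log scale) of 8 members in every library of lung (left of the line) and skin (right), with open points for control and filled points for depleted mice, blue for macrophages and red for fibroblasts; bars are group means and crosses the 2 skin control macrophage libraries kept apart. Ctsc, Laptm5, Psap and Lgmn are higher in macrophages, Ctsl and Laptm4a are higher in fibroblasts, and Ctsk is higher in macrophages in lung depleted mice and in fibroblasts in skin, with groups that overlap in lung control mice.

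Of the glycosidases and lipases, 7 were in the lung table and 8 in skin. Hexa, the α subunit of hexosaminidase, rose in macrophages by 1.705, 2.699 and 1.78 in lung control, lung depleted and skin depleted mice. Gusb (β-glucuronidase) rose by 1.21, 2.16 and 2.14, although the lung control call was lost without any 1 macrophage library or fibroblast replicate 2 (1.14 to 1.22). That call was also lost without a variance trend (1.21). Asah1 (acid ceramidase) rose by 1.86, 1.76 and 1.77. Lipa, the lipase that frees cholesterol and fatty acids from lipoproteins, was called in skin only, at 282, 243, 275 and 345 in macrophages and 116, 66.4 and 78.2 in fibroblasts (1.74); in lung its differences were 0.31 and 0.62. Man2b1, the lysosomal α-mannosidase, held 557, 455, 414 and 604 in skin depleted macrophages and 99.9, 66.8 and 90.3 in fibroblasts, with no overlap (2.56).

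Gaa, the acid α-glucosidase that degrades glycogen, was the enzyme of this class found lower in macrophages. Lung control macrophages held 6.78, 10.5 and 20.8, from 7 estimated reads in all, and fibroblasts 62.8, 49.1 and 90.9, a difference of -2.41 ± 0.55 (SE; adjusted p = 0.002297). In lung depleted mice the groups did not overlap either (27.7, 9.31 and 20.6 against 51.2, 56.4 and 36.3), but the difference of -1.37 was not called (adjusted p = 0.0693). In skin, depleted macrophages held 29.5, 13.2, 9.06 and 21.01 against 75.4, 62.1 and 86.99, a difference of -2.095 ± 0.46 (SE; adjusted p = 0.00798). Glb1 (β-galactosidase) and Neu1 (sialidase) were called in none of these comparisons. Glb1 was at 0.0809, 46.2, 39.5 and 44.5 in skin depleted macrophages, where the first value stands for 0 reads, and at 37.6, 21.7 and 42.97 in fibroblasts, and its interval ran wide (-3.63 to 1.74).

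All 3 soluble cofactors were higher in macrophages in all 3 comparisons. Psap held 1973, 1619.8 and 2082 in lung control macrophages against 461, 459 and 661 in fibroblasts, a difference of 1.85, and 2.16 in depleted mice. In skin depleted mice it reached 5777, 5109, 3656 and 7522 against 1407, 1149.9 and 1193 (2.099), and no macrophage library came down to the fibroblast range. Grn, which encodes progranulin, rose by 1.95, 2.29 and 1.67. Npc2, which hands cholesterol to the membrane protein Npc1, rose by 1.25, 2.797 and 2.22. Its lung values were low, at 51.99, 67.4 and 86.1 in control macrophages and 30.02, 26.002 and 26.7 in control fibroblasts, and at 95.4, 146 and 179.6 in depleted macrophages and 64.7, 40.8 and 1.73 in depleted fibroblasts. Fibroblast replicate 3 of the depleted mice held 0 reads of it, and without that library the difference was 1.38 and still called. The control call was lost without macrophage replicate 2 or 3 or any 1 fibroblast library (1.08 at the lowest), and the depleted call without macrophage replicate 3 (2.6) or fibroblast replicate 2 (3.34), and the depleted value was 3.67 without fibroblast replicate 1. With the other settings, the control call was lost under 9 of 15 alternatives. These included all groups in 1 model (1.25), quantile normalisation (1.19), a block for replicate number (1.25) and no variance trend (1.25). The depleted call was lost under 4 of 15, among them quantile normalisation (2.6) and no variance trend (2.8). In skin depleted macrophages Npc2 was at 1841, 1979, 2204 and 1839.

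The 9 membrane proteins were split. Laptm5, a lysosomal protein of blood-lineage cells that also lowers receptor signalling in lymphocytes, sits on chr4:130913125-130936141. It held 1159.6, 1482 and 1600.3 in lung control macrophages and 2.73, 31.8 and 5.35 in fibroblasts, the latter from 6 estimated reads in all. Lung depleted macrophages held 1430.2, 1437 and 1387 and fibroblasts 10.2, 40.8 and 29.4, and skin depleted macrophages 2556, 2244, 1971 and 1995 and fibroblasts 2.52, 1.01 and 2.18. Its differences, the largest among the members in all 3 comparisons, were 7.24 ± 0.53 (SE; adjusted p = 1.02e-09), 5.87 ± 0.38 (SE; adjusted p = 2.54e-09) and 9.59 ± 0.27 (SE; adjusted p = 9.21e-09). In lung control mice the value was 6.6 without fibroblast replicate 1 and 8.16 without replicate 2, and was called in both.

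Laptm4a, its relative on chr12:8921664-8938742, went the other way. Control macrophages of lung held 472, 440.5 and 389 and fibroblasts 1548, 1436 and 1549; depleted macrophages held 582, 531 and 680.1 and fibroblasts 1835, 1484 and 1657. Skin depleted macrophages held 288, 543, 622 and 396 and fibroblasts 2055, 1293 and 1178. The groups were apart in each case, by -1.801 ± 0.24 (SE; adjusted p = 4.77e-06), -1.47 ± 0.195 (SE; adjusted p = 1.98e-05) and -1.72 ± 0.301 (SE; adjusted p = 0.00214).

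Scarb2, the receptor that carries glucocerebrosidase to lysosomes, was lower in lung macrophages. Its lung control values were 38.4, 64.4 and 38.6 in macrophages and 84.6, 170.5 and 283 in fibroblasts, and its differences were -1.78 ± 0.43 (SE; adjusted p = 0.00369) in control and -1.96 ± 0.36 (SE; adjusted p = 0.000654) in depleted mice. In skin depleted mice macrophages held 66.7, 43.8, 70.2 and 73.7 and fibroblasts 65.6, 64.4 and 54.7, which overlapped (0.02, 95% interval -0.65 to 0.699). Cd63 was likewise lower in lung macrophages (-1.09 and -0.77 ± 0.23 (SE; adjusted p = 0.0241)) and not called in skin (-0.695, adjusted p = 0.0975). The lung control call of Cd63 was lost without fibroblast replicate 1 (-0.9), and the depleted call without macrophage replicate 2 or any 1 fibroblast library (-0.86 to -0.54). Without a variance trend both calls were lost (-1.09 and -0.77).

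The 2 major lysosomal membrane glycoproteins showed small differences between the cell types. Lamp1 held 454, 388 and 395 in lung control macrophages and 309, 368 and 367 in fibroblasts, which did not overlap but differed by 0.25 only (95% interval -0.301 to 0.79). In skin depleted mice it was called higher, at 837, 1061, 998 and 1448 against 758, 416 and 656 (0.85), a call lost without macrophage replicate 2, 3 or 5 or fibroblast replicate 4 or 5 (0.59 to 0.92). Quantile normalisation (0.35) and a fit without a variance trend (0.85) lost it as well. Lamp2, whose splice form A takes up proteins in chaperone-mediated autophagy, was lower in lung control macrophages (-0.81), a call lost without macrophage replicate 1 or 2 or fibroblast replicate 1 or 3 (-0.83 to -0.59). The call was also lost with median-of-ratios rescaling (-0.77), without a variance trend (-0.81) and with a block for replicate number (-0.81). The value of Lamp2 in skin was -0.08 with an interval of -0.54 to 0.38. Cln3, lost in juvenile Batten disease, was called higher in skin macrophages (1.701), a call lost with all skin groups in 1 model. Exons of Cln3 share 442 bases (7.65%) with Apobr on the opposite strand. Apobr held 19.2, 21.7, 27.2 and 18.5 in skin depleted macrophages and 0.177, 0.029 and 2.09 in fibroblasts, and its part in the Cln3 values was not tested. Npc1 and Mcoln1, the calcium channel TRPML1, were called nowhere (1.03 and 0.33 in skin).

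The 2 transcription factors were low everywhere. Tfeb held 15.8, 25.5 and 8.91 in lung control macrophages, 12 estimated reads in all, and 0 reads in all 3 control fibroblast libraries. Set against a floor of 3 reads over the fibroblast group it was 2.72-fold higher. It was called, except without macrophage replicate 2 (1.9) or fibroblast replicate 3 (2.09). Over the alternatives its log2 difference ran from 1.03 to 2.61. In lung depleted mice both groups were near the floor, with 3 and 4 reads. In skin depleted mice the values were 29.04, 13.9, 17.2 and 17.3 in macrophages and 7.76, 0.0869 and 5.41 in fibroblasts, with no overlap, and the difference of 2.32 was not called (adjusted p = 0.0729). Tfe3 held 24.8, 57.97, 13.2 and 73.2 in skin depleted macrophages and 24.9, 44.9 and 44.02 in fibroblasts, and its interval there was -1.39 to 1.23.

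Skin control mice allow the same comparison with 1 macrophage library against 3 fibroblast libraries, where the lone library is assumed to vary like the fibroblasts, whose spread is the only one in the fit. Of 32 members 5 were called higher and 2 lower (4.8 and 4.12% of 12511 genes, 8.93% together). Laptm5 (9.28), Ctsc (5.495), Lgmn (4.38), Ctsb (2.28) and Grn (1.57) were higher, while Ctsk (-3.01) and Ctsl (-1.79) were lower. With the 3 macrophage libraries as labelled, no member and none of 11660 genes was called by limma, and the differences shrank to 2.76 for Laptm5, 1.51 for Ctsc and -1.02 for Ctsk. Leaving out fibroblast replicate 4 or 5 left 0 members called, and leaving out replicate 3 left 13, so the number called depended on single libraries.

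Genes of the wider lysosomal system were counted in lists chosen by function, and their counts stand beside 12.2, 12.5 and 11.4% of all genes called higher and 11.0, 10.6 and 12.7% called lower in lung control, lung depleted and skin depleted mice. Of 17 subunits of the V-ATPase, 9, 12 and 13 were called higher in macrophages in these comparisons, and none lower. Atp6v0d2, a subunit isoform known from osteoclasts and macrophages, rose by 4.32 in lung control and 6.57 in skin depleted mice, and Atp6v0b by 1.46, 1.38 and 2.01. Of 39 other lysosomal hydrolases 12, 11 and 13 were higher and 0, 1 and 1 lower, led by Ctss, the cathepsin that trims the invariant chain of MHC class II, at 6.42, 6.49 and 10.39. Of 24 other lysosomal membrane proteins 6, 4 and 6 were higher and 1, 4 and 1 lower. Cd68, which was part of the macrophage gates, and Slc11a1, the NRAMP1 metal transporter of phagosomes, led this list. The median differences in these lists were 1.11, 1.11 and 1.36 for the pump, 0.24, 0.38 and 0.89 for the hydrolases, and 0.14, 0.39 and 0.29 for the membrane proteins.

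Of 16 sorting receptors and tagging enzymes, 2, 2 and 3 were called higher and 2, 2 and 0 lower. M6pr, the small mannose 6-phosphate receptor, rose in macrophages by 1.004, 1.53 and 1.54. Igf2r, the large receptor for the same tag, was lower in lung macrophages (-2.75 ± 0.67 (SE; adjusted p = 0.0040004) and -2.85 ± 0.66 (SE; adjusted p = 0.00379)), and so was the sorting receptor Sort1 (-1.83 and -1.88). Lung control macrophages held a mean of 5.75 ± 2.43 (SD, n = 3) units of Igf2r and fibroblasts 47.3 ± 23.5 (SD, n = 3). A read was worth 4.52, 2.997 and 5.94 units in those macrophage libraries, so their Igf2r values rest on few reads. Cstb, a cytosolic inhibitor of cathepsins, rose in all 3 comparisons (1.39, 1.52 and 1.86).

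Of the MiT factors, mTORC1 and Ragulator genes 2 of 20, 4 of 20 and 4 of 21 were higher and 1, 1 and 0 lower. Tfec, a MiT factor of myeloid cells, was among those called higher in all 3. Its values in lung control macrophages ran from 4.49 to 44.5, in skin depleted macrophages from 16.5 to 40.2, and fibroblasts of those mice held no read of it. Of the autophagy genes 1 of 20, 1 of 20 and 3 of 21 were higher and 4, 5 and 2 lower. For these 2 lists, as for the sorting genes, several counts lay near the shares of all genes, and none is a result about the list. Wipi1, which binds the membranes that grow into autophagosomes, was lower in all 3 comparisons (-3.47, -2.53 and -2.83), and Gabarapl1, an LC3 relative, in both lung comparisons (-2.88 and -3.03).

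The depletion itself was compared within each cell type. In lung macrophages 1 of 31 members was called higher after depletion and none lower, where 0.0674% of 11867 genes were called higher and 0.43% lower (0.497% in all). That member was Ctsb, a cysteine protease and the cathepsin most studied for its release into the cytosol, on chr14:63122462-63145923. Its values were 70.1, 136 and 139.6 in control and 292, 282 and 268 in depleted macrophages. All 3 depleted libraries were above the controls and close to one another, and the difference was 1.34 ± 0.301 (SE; adjusted p = 0.0165), or 2.53-fold. The call was lost under 9 of 15 alternatives, among them leaving out any 1 of the control libraries or depleted replicate 1 or 2, with differences between 1.02 and 1.51. Ctsb shares 774 exon bases (12.8%) with Fdft1 on the opposite strand, which stood at 4.43 to 38.4 in control and 3.08 to 21.7 in depleted macrophages.

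The members with the next lowest p were not called. Ctsh held 432, 661 and 731 in control and 1381, 915 and 905 in depleted lung macrophages, a difference of 0.82 ± 0.25 (SE; adjusted p = 0.2098). Npc2 held 51.99, 67.4 and 86.1 and 95.4, 146 and 179.6, a difference of 1.005 ± 0.36 (SE; adjusted p = 0.355). Both were without overlap between groups. In all, 7 members had every depleted library above every control library (Ctsb, Ctsc, Ctsh, Grn, Gusb, Laptm4a and Npc2) and none the reverse, where 6.21% of all genes did so upward and 6.02% downward. At an unadjusted p below 0.05 there were 6 members, beside 7.94% of all genes. The median member differed by 0.27, and the median of all genes by 0.04. Control replicate 1 was the lowest of the 6 libraries for all of those 7 but Laptm4a.

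Other cell types moved with this comparison. The 11 neutrophil markers summed to 0.773 to 1.67% of reads in the control lung macrophage libraries and to 0.153 to 0.189% in the depleted ones, with 7 of 11 called lower. The 6 B and plasma cell markers summed to 0.0775 to 0.197% and 0.0205 to 0.0612%, with 2 called lower. The 12 epithelial markers summed to 0.243 to 0.924% and 0.969 to 2.18%, with 3 called higher, and the 16 macrophage markers to 1.98 to 3.28% and 3.64 to 4.03%, with none called. No marker of these 4 lists was at 0 in all libraries of a group. The 7 alveolar macrophage markers summed to 0.09475 to 0.126% in control and 0.08181 to 0.0865% in depleted libraries. The part of all these cells in the member values was not tested. Among the 7 lists of the wider lysosomal system limma called only Stfa2l1, a stefin that inhibits cathepsins. Its difference was -2.02 ± 0.47 (SE; adjusted p = 0.0233), from 93.3 ± 9.68 (SD, n = 3) to 23.4 ± 9.68 (SD, n = 3). The part of neutrophil reads, which also fell, in this difference was not tested. The median differences were 0.13 for the V-ATPase and 0.16 for the other hydrolases.

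**Figure D5:**
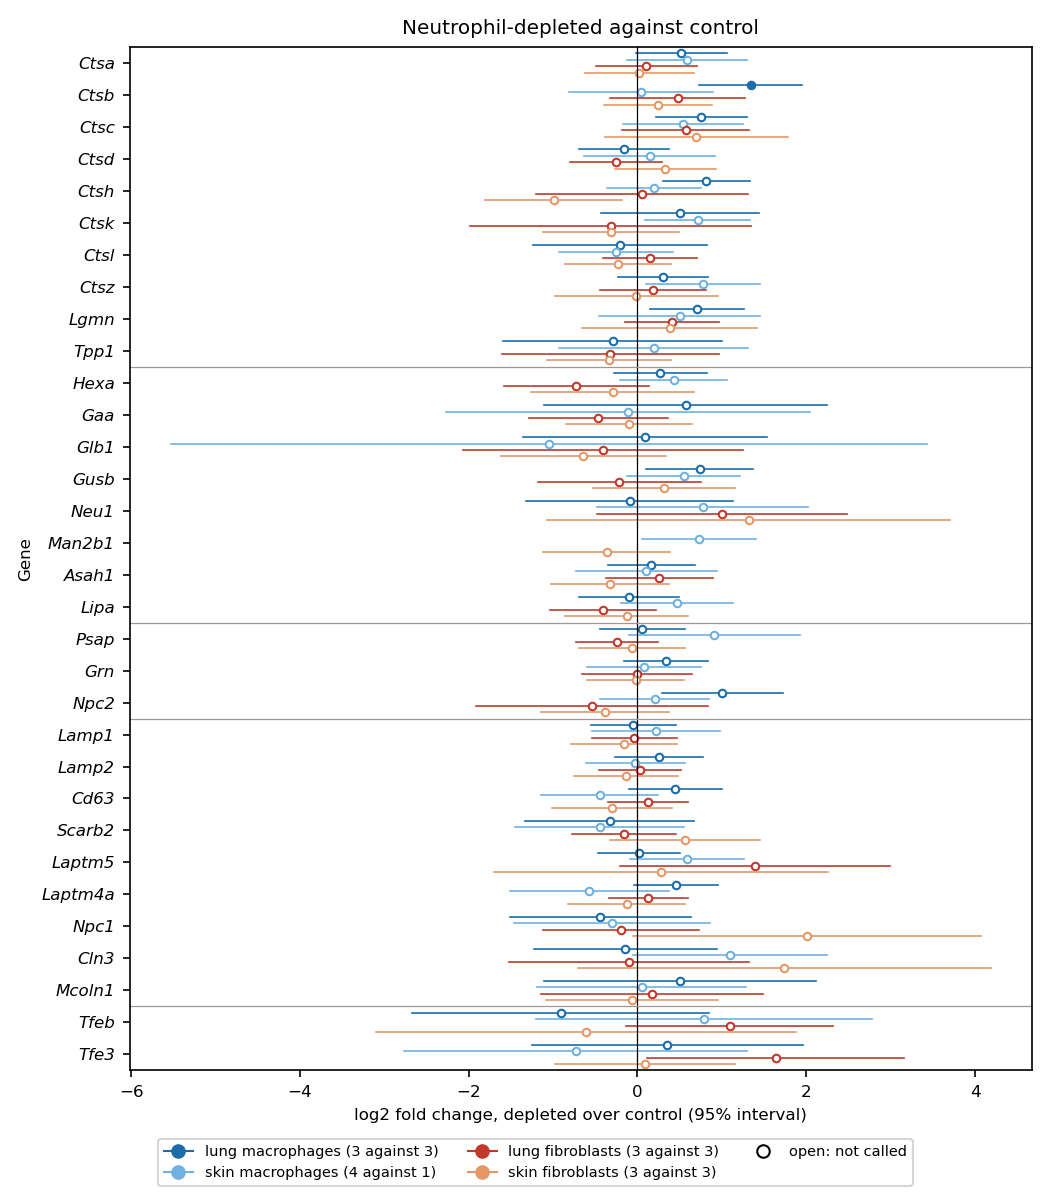
Log2 fold changes of depleted over control mice with 95% intervals for each member in lung macrophages, skin macrophages, lung fibroblasts and skin fibroblasts; filled points were called and open points were not. Ctsb in lung macrophages, at 1.34, is the only filled point, and Glb1 in skin macrophages has the widest interval, with 1 depleted library at 0 reads.

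In lung fibroblasts limma called no member, and 0.00843% of all genes (1 of 11867). At an unadjusted p below 0.05 there was 1 member, Tfe3, at 19.1, 14.4 and 1.78 in control and 30.6, 21.4 and 36.3 in depleted fibroblasts (1.64 ± 0.77 (SE; adjusted p = 0.969)). Without control replicate 3 its difference was 0.75. Tfeb (1.09) and Laptm5 (1.39) came next, with adjusted p = 0.969 and 0.979, all from few reads: 5 against 19 for Tfe3, 0 against 4 for Tfeb and 6 against 19 for Laptm5. Tfe3 and Tfeb had no overlap upward and Psap none downward (4.94 and 4.26% of all genes). For Tfeb the lowest depleted library, replicate 1 at 3.404, held 0 reads, as did the controls, so in reads its groups overlapped. The effect of depletion did not pass the test for a difference between lung macrophages and fibroblasts in any member (0 called, 0 at an unadjusted p below 0.05, where 0.0169% and 5.50% of all genes were). For Ctsb that difference was 0.86, with an interval of -0.31 to 2.04.

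Skin macrophages could be compared as 4 depleted libraries against 1 control library. By limma 0 of 32 members and 0 of 12028 genes were called, and 3 members were below an unadjusted p of 0.05, beside 6.93% of all genes. These were Ctsk (0.72, adjusted p = 0.647), Ctsz (0.78, 0.647) and Man2b1 (0.73, 0.678). The control library held 191 of Ctsk, 571 of Ctsz and 301 of Man2b1, and the depleted libraries 289, 312, 295 and 367 of Ctsk, 854, 922, 929 and 1262 of Ctsz and 557, 455, 414 and 604 of Man2b1, so the control was lowest each time. For some other cell types that control library held more reads than any depleted library. Among these were 0.574% for 8 keratinocyte markers, against 0.131 to 0.311%, 0.208% for the fibroblast markers, against 0.0302 to 0.132%, and 0.0335% for 5 mast cell markers, against 0.000405 to 0.00901%. For others it held fewer, among them 2 B and plasma cell markers (0.0223%, against 0.02525 to 0.0456%) and 7 monocyte markers (0.0937%, against 0.1397 to 0.2656%). The part of all these cells in the member values was not tested. With all 7 libraries as labelled again 0 members and 0 of 11716 genes were called, but the values were other ones: -1.27 for Ctsk, in the opposite direction, 1.65 for Ctsz, 1.57 for Man2b1 and 7.11 for Laptm5 (adjusted p = 0.0993). Without the libraries kept apart Laptm5 differed by 0.59.

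In skin fibroblasts too, 0 of 32 members and 0 of 11780 genes were called by limma, with 1 member and 2.40% of all genes below an unadjusted p of 0.05. That member was Ctsh, at 245, 330.1 and 385 in control and 264, 92.9 and 160.4 in depleted fibroblasts (-0.99 ± 0.37 (SE; adjusted p = 0.955)), where 1 depleted library lay inside the control range. Npc1 (2.01) and Cln3 (1.74) followed, with adjusted p = 0.955 and 0.955. Control replicate 3 held 1.21 units of Npc1 and 0.09897 of Cln3, against 33.5 and 14.2 of Npc1 and 9.08 and 18.8 of Cln3 in the other control libraries. Without it the differences were 0.89 and 0.51. Gusb and Scarb2 did not overlap upward and Glb1 downward (4.28 and 4.19% of all genes). The medians were -0.08 for the members and 0.03 for all genes.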

How the data were processed

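Libraries were made from sorted cells with the Ovation Single Cell RNA-Seq System and read single-end, per the labels' protocols. The submitters' processing notes name CASAVA 1.8, cutadapt 1.7.1, RSEM 1.7.1, limma 3.46 and the build mm10, without their roles. How values were normalised, and whether counting used strand, is not stated in these sources. The authors deposited a table of normalised signal for each organ. Each signal value of a library is its estimated reads plus 0.5, times a constant. Estimated reads came out whole, within 0.01, for 69.98 to 82.2% of lung genes and 27.4 to 58.0% of skin genes, depending on the library, so no count model was used.

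Genes were named through the GENCODE M21 annotation of GRCm38, which matched 11829 of 11867 lung and 12641 of 12661 skin genes, and which gave coordinates and exon lengths. Each comparison was fitted to the libraries of its own groups with limma 3.58.1 in R 4.3.3 (two-sided, moderated with a variance trend), on log2 of the signal plus a millionth of the mean library total. Genes were tested where the number of libraries with a millionth of their total or more was not below the size of the smallest group, and every member in a table passed. The difference of depletion effects in lung used a model of 4 groups. Full statistics are given for called members (the 4 largest in each direction where more than 10 were called) and for the 3 lowest p in each depletion comparison, and of the related lists up to 3 called genes with the lowest p are named. Members, lists, markers and the libraries kept apart were chosen with earlier results of these data known. Alternatives varied the pseudocount, filter, scaling, variance model, groups in the model, a block for replicate number and each library left out.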

Additional observations from a re-analysis of the deposited data

Results flagged for a closer look

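With 32 members examined for a library that stands apart in the 4 skin depleted macrophage libraries, a test of this kind picks about 1 in 20 groups by chance. In those libraries 5 members had a highest or lowest library far from the others. Ctsa was at 1195.19 in replicate 5 and at 774.1 to 824 in the others. Lgmn was at 3473.52 in the same library and at 1788 to 1831 elsewhere. Grn was at 1504.17 in replicate 1, against 1079.5 to 1131 in the others. Glb1 was at 0.0808904 in replicate 1, which stands for 0 reads, against 39.5 to 46.2. Lamp2 was at 555.181 in replicate 3, against 651 to 670.4 in the others.

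Ctsk differed in opposite directions between macrophages and fibroblasts of the 2 organs. Its log2 difference was 2.54 in lung depleted mice, where it was higher in every macrophage library than in any fibroblast library, and -1.98 in skin depleted mice, where it was lower in every one. The difference between the organs was not tested.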

How the results depend on the processing

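Called members kept their direction between the cell types under every alternative run. Single values were followed for the members called in the reported fit and, for depletion, for the 3 of lowest p. Of these, 1098 stayed on their side of the threshold, 93 lost their call, 1 gained one and 1 turned: Ctsk in skin macrophages after depletion, from 0.72 to -1.27 with the libraries as labelled. Members called numbered 15 to 20 of 31 in lung control mice, 17 to 20 in lung depleted mice and 20 to 23 of 32 in skin depleted mice, where rescaling by the median of ratios moved the median of all genes from -0.11 to 0.03. In lung macrophages the number called after depletion went from 1 to 0 with a pseudocount 10 times larger (38 of all genes called, against 59), with quantile normalisation (27), without a variance trend (0) and with all groups in 1 model (18). It was 0 to 1 with each library left out (11 to 70 of all genes, with 11 without control replicate 2 and 12 without control replicate 3). In skin control mice it went from 7 to 2 without a variance trend and to 0 with the libraries as labelled, and was 0 to 13 with each fibroblast library left out (0 to 2050 of all genes, against 1117). Counts over all genes also ran from 0 to 7 in lung fibroblasts (1 in the reported fit), from 0 to 12 for the difference of depletion effects (2), and to 62 without a filter and 2 with quantile normalisation in skin macrophages (0). In skin fibroblasts 16 genes were called without depleted replicate 2, and Ctsh differed by -0.61 without depleted replicate 4. The cause of these changes was not tested.

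The replicate numbers of the titles were not taken as pairing the samples: deviations of same-numbered libraries correlated at -0.17 to 0.19, and in 3 of 16 pairs each library correlated best with its own number. With the number as a replicate block, 1 member was called in skin fibroblasts, Ctsh (-1.54, adjusted p = 0.0073 by limma), with 84 of all genes, and 4 of all genes were called in lung fibroblasts. Only numbers 4 and 5 occur in both skin fibroblast groups, so that difference comes from 2 pairs. Control replicate 3 and depleted replicate 2 do not enter it. With the block, the members called between cell types numbered 18 in lung control, 20 in lung depleted and 23 in skin depleted mice. In skin depleted mice only numbers 2 and 5 were shared. No paired analysis was possible for skin macrophages or for skin control mice, because the groups share fewer than 2 numbers once 2 libraries are kept apart. Depth limits the lung results: Cln3, Ctsk, Gaa, Glb1, Laptm5, Mcoln1, Neu1, Tfe3 and Tfeb summed to 10 or fewer estimated reads in at least 1 lung group.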
